A study of Mus musculus with 25 samples.

Results

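Hypothalami of tumor-bearing mice were set against those of mice injected with PBS, 72 h after injection, on the 4 dual-colour spotted arrays that carried total RNA of that time, out of 25 arrays in the series. All mice were male BALB/c, 8 weeks old, and all were killed 72 h after injection. Tumor mice received 1000000 cells of CT-26.WT, which is a BALB/c colon carcinoma line, in 300 µl of PBS under the skin, and PBS mice received the same volume of PBS without cells. Each array held tumor cDNA in one dye and PBS cDNA in the other. Replicate 3 was hybridised on array 450 (tumor in Cy5) and array 451 (tumor in Cy3), and replicate 4 on array 454 (tumor in Cy5) and array 455 (tumor in Cy3). Whether a replicate is 1 animal or a pool is not stated in the labels, so the p-values below rest on sample-to-sample spread that may be technical in part. A gene was described when its probe gave a value on all 4 arrays, which held for 1936 of the 8726 named genes with a value on any total RNA array. The 5 polyA RNA arrays of 72 h were left out because their spot brightness did not follow the probe names, with a median Spearman correlation to the total RNA arrays of 0.018 over 70 pairs of arrays, whereas the 4 arrays used here had a median of 0.468 among themselves.

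The hypothalamus controls feeding, body temperature, hormone release and autonomic outflow through peptide-secreting neurons, and its neurons read blood-borne signals such as leptin, insulin, glucocorticoids and cytokines. Tumors and infections can reach it through circulating cytokines and through nerve fibres, with the vessel wall, microglia and tanycytes among the cells that respond. The comparison asks how hypothalamic transcript levels of tumor and PBS mice compare at 72 h.

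The 4 arrays differed in depth. Both channels were above 0 on 6599, 8163, 3074 and 8654 of 10080 spots on arrays 450, 451, 454 and 455. The tumor channel was listed at 0 for 48.9%, 35.0%, 72.3% and 14.4% of spots on these arrays, and the PBS channel for 11.8%, 17.7%, 15.5% and 16.0%. Array 454 therefore set which genes could be described, since replicate 3 measured 5045 genes and replicate 4 measured 2559. A spot with the tumor channel at 0 gave no ratio, so a gene whose tumor signal fell to 0 could not be described. The same holds for a PBS signal of 0, which was rarer on arrays 450, 451 and 454. Among spots above 0 in both channels, the median of background-subtracted signal over local background was 2.25, 0.986, 1.07 and 1.5. The typical such spot of arrays 451 and 454 thus had a signal, after subtraction, about equal to its background. Few arrays at this brightness limit the precision of every ratio.

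Opposite dye orientations of one replicate did not give the same picture. After all ratios had been turned to tumor over PBS, arrays 450 and 451 correlated at r = -0.42 and arrays 454 and 455 at r = -0.31 over the 1936 genes. Arrays of the same orientation from different replicates correlated at 0.20 (450 with 454) and 0.26 (451 with 455). The scans name their channels A and B only. Reading A as Cy3 and B as Cy5 follows the order of the labels, so the direction of every ratio is likely but not settled. The authors' processed log ratios correlated with the turned ratios at r = 0.82, 0.77, 0.68 and 0.68 on arrays 450, 451, 454 and 455. Both were thus turned the same way, and whether the recorded orientations are right was not tested. A dye effect and a wrongly recorded dye orientation cannot be told apart from these values. Before turning, 162 genes had one sign of Cy5 over Cy3 on all 4 arrays with a mean of at least 0.3 in size on the log2 scale, against 35 genes by the same measure after turning.

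No gene passed the test of a tumor effect at 72 h. The limma fit over the 7 total RNA replicates of 18, 72 and 192 h called 0 of 1936 genes (0%) at a Benjamini-Hochberg adjusted p under 0.05, and the smallest adjusted p was 0.966. The unadjusted limma p was under 0.05 for 28 genes with a mean above 0 (1.45%) and for 45 with a mean below 0 (2.32%). The median standard error of a gene's mean was 0.14 on the log2 scale, while the median size of a mean was 0.10, so the typical ratio was smaller than its own error. The means of 18 genes were at least 0.5 in size. Between the replicates the log2 ratios correlated at r = -0.0021 and rho = 0.067 over the 1936 genes, which is a description across genes that share probes and arrays. The sign was shared for 1027 genes (53.0%). In the brightest 646 genes 57.1% shared their sign and r was 0.085, and in the dimmest 645 genes 51.0% did and r was -0.0065. In the 645 genes of middle brightness 51.0% shared their sign and r was -0.061.

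**Figure D1:**
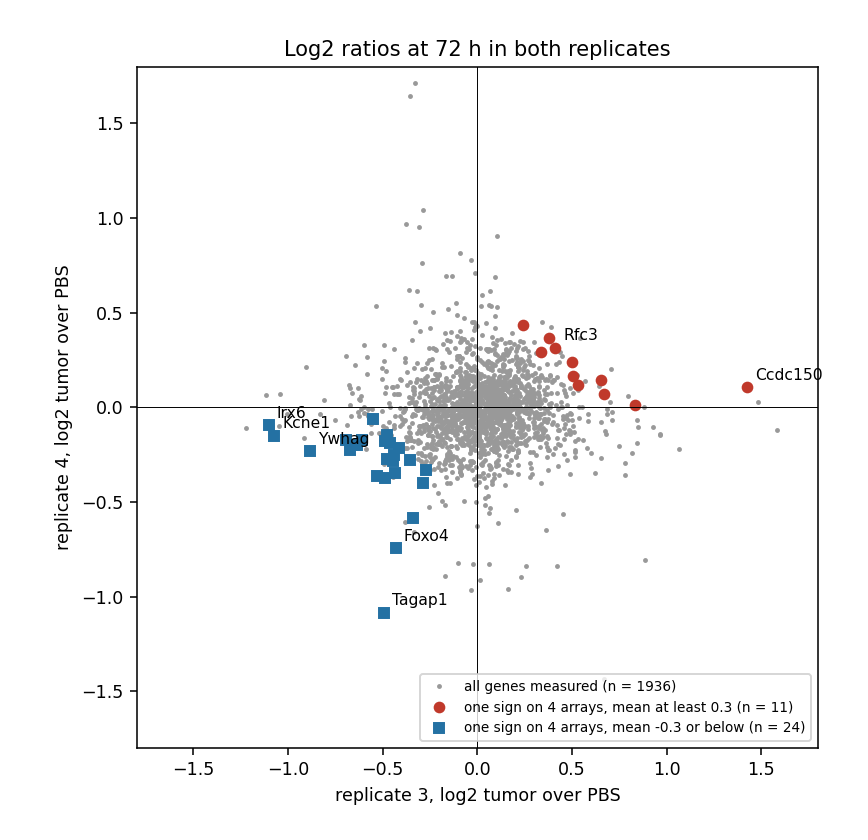
Log2 tumor over PBS in replicate 3 (x axis) against replicate 4 (y axis) for 1936 genes, each the mean of both dye orientations; red circles mark the 11 genes above 0 and blue squares the 24 genes below 0 on all 4 arrays with a mean of at least 0.3 in size. The cloud has no slope (r = -0.0021).

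Because no gene passed, the genes are described by a rule of agreement, which asks for one sign on all 4 arrays and so for both replicates and both orientations. One sign on all 4 arrays was found for 94 genes above 0 (4.86%) and 104 below 0 (5.37%). Within a replicate, the orientations shared a sign for 41.6% of genes (450 with 451) and 43.0% (454 with 455), fewer than had opposite signs. The rule therefore describes genes, and whether they would be found again was not tested. With a mean of at least 0.3 in addition, 11 genes were above 0 (0.568%) and 24 below 0 (1.24%). Of these genes, 16 were among the dimmest 645, 13 among the 645 of middle brightness and 6 among the brightest 646. Most of them thus came from the dimmest and middle sets, where 51.0% of genes shared their sign between the replicates. The rule's edge is soft. Cacna1d stood just inside at a mean of -0.301, and Fgf3, a fibroblast growth factor gene, just outside at -0.299.

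Tagap1, a GTPase-activating protein gene named for T cell activation, had the lowest mean of the genes of one sign. Its log2 ratios were -0.53 and -0.46 in replicate 3 (arrays 450 and 451) and -1.81 and -0.36 in replicate 4 (arrays 454 and 455). All 4 arrays were below 0, and array 454 stood far below the others. The mean was -0.79 ± 0.17 (limma SE, n = 2, adjusted p = 0.966), and it was -0.43 without array 454. Here and below, leaving out an array left its replicate with the other orientation alone. That single array then weighed as much as the whole other replicate, so the dye orientations were no longer balanced. Tagap1 has a close paralog, Tagap, and which of them the probe hybridises with was not tested.

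Foxo4, a forkhead transcription factor that insulin signalling keeps out of the nucleus, gave -0.35 and -0.51 in replicate 3 and -0.96 and -0.53 in replicate 4. These 4 values lay closer together than those of Tagap1, and the mean was -0.59 ± 0.15 (limma SE, n = 2, adjusted p = 0.966). Whichever array was left out, its mean stayed between -0.48 and -0.70. The value was -0.26 with loess within each print block and -0.089 in the authors' processed values, read as natural logs.

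Cdk7, Gps2 and Med22 were below 0 on all 4 arrays with means short of 0.3 in size, and Smg9 and Sin3b met that minimum too. Cdk7, the kinase of the transcription factor TFIIH and of the CDK-activating complex, gave -0.25, -0.35, -0.31 and -0.25 on arrays 450, 451, 454 and 455. Gps2, a subunit of a nuclear receptor corepressor complex, gave -0.29, -0.34, -0.20 and -0.35. Med22, a Mediator subunit, gave -0.23, -0.37, -0.19 and -0.30. In all 3 genes the arrays lay close together, at means of -0.29, -0.29 and -0.27. These genes were named for the largest smallest array value, which at such means favours arrays that lie close together. Their closeness is therefore partly a result of how they were chosen. Smg9, a subunit of the complex that starts nonsense-mediated mRNA decay, gave -0.49 and -0.19 in replicate 3 and -0.95 and -0.22 in replicate 4, with both Cy5 arrays lower than both Cy3 arrays and a mean of -0.46 ± 0.14 (limma SE, n = 2, adjusted p = 0.966). Without array 454 it was -0.28. Sin3b, a corepressor scaffold, had a mean of -0.31 that became -0.13 without array 450.

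Among the other genes below 0 by the rule, Ywhag, the gamma 14-3-3 protein that binds phosphorylated signalling proteins, gave -0.52 and -1.25 in replicate 3 and -0.37 and -0.10 in replicate 4, with a mean of -0.56 ± 0.19 in limma SE. Its 2 replicates differed by more than the size of the smaller. Mon1a, which acts with Ccz1 in handing endosomes over to Rab7, gave -0.93, -0.41, -0.24 and -0.21 on the 4 arrays. Ttc39b, a tetratricopeptide repeat protein gene, gave -0.38, -0.68, -0.24 and -0.49, with both Cy3 arrays lower than both Cy5 arrays. Atrn encodes attractin, a membrane protein that agouti signalling at melanocortin receptors needs in mice. Its arrays gave -0.06, -1.16, -0.01 and -0.34, so that the mean of -0.39 rested on array 451 and was -0.12 without it. Prep, a peptidase that cuts short neuropeptides after proline, had a mean of -0.32, and Slc38a3, a glutamine transporter of astrocytes, one of -0.36. Without array 451 Prep was at -0.21 and Slc38a3 at -0.25.

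Among the 12 genes above 0 with the largest smallest value, Rfc3 stood first. It encodes a subunit of the clamp loader of DNA replication, and gave 0.51, 0.31, 0.31 and 0.31 on arrays 450, 451, 454 and 455. The values of 451, 454 and 455 were the same to the second decimal and array 450 was higher, with a mean of 0.36 ± 0.13 (limma SE, n = 2, adjusted p = 0.966). Slc30a1, the zinc exporter of the cell surface, gave 0.13, 0.41, 0.34 and 0.16. Grb14, an adaptor that restrains the insulin receptor, gave 0.49, 0.12, 0.22 and 0.15. Their replicate means were close, at 0.27 and 0.25 for Slc30a1 and 0.31 and 0.18 for Grb14, whose mean of 0.24 was 0.15 without array 450. Sparc, a matrix protein made by vessels and glia, gave 0.29, 0.20, 0.14 and 0.48. Nkx2-2, a homeobox factor of ventral forebrain and oligodendrocyte precursors, gave 0.43, 0.22, 0.20 and 0.12. Ccnc, the cyclin of the Mediator kinase module, gave 0.31, 0.16, 0.24 and 0.11.

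Among the 11 genes above 0 by the rule, Etfa, a subunit of the flavoprotein that passes electrons from fatty acid oxidation to the respiratory chain, gave 0.28 and 0.39 in replicate 3 and 0.54 and 0.05 in replicate 4. Hadhb, the beta subunit of the mitochondrial trifunctional protein, gave 0.34, 1.00, 0.14 and 0.00, and Gpd2, the mitochondrial glycerol phosphate dehydrogenase, gave 0.38, 0.10, 0.55 and 0.32. The means were 0.31, 0.37 and 0.34. Etfa was at 0.19 without array 454, Hadhb at 0.21 without array 451, and Gpd2 at 0.27 without array 450. Rragc, a Rag GTPase that reports amino acids to mTORC1, had a mean of 0.42 that came from replicate 3 (0.36 and 1.30), since replicate 4 gave 0.00 and 0.02. Without array 451 it was 0.19. Resp18, an endoplasmic reticulum protein of neuroendocrine cells, gave 0.92, 0.09, 0.22 and 0.11 and a mean of 0.33, or 0.13 without array 450.

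**Figure D2:**
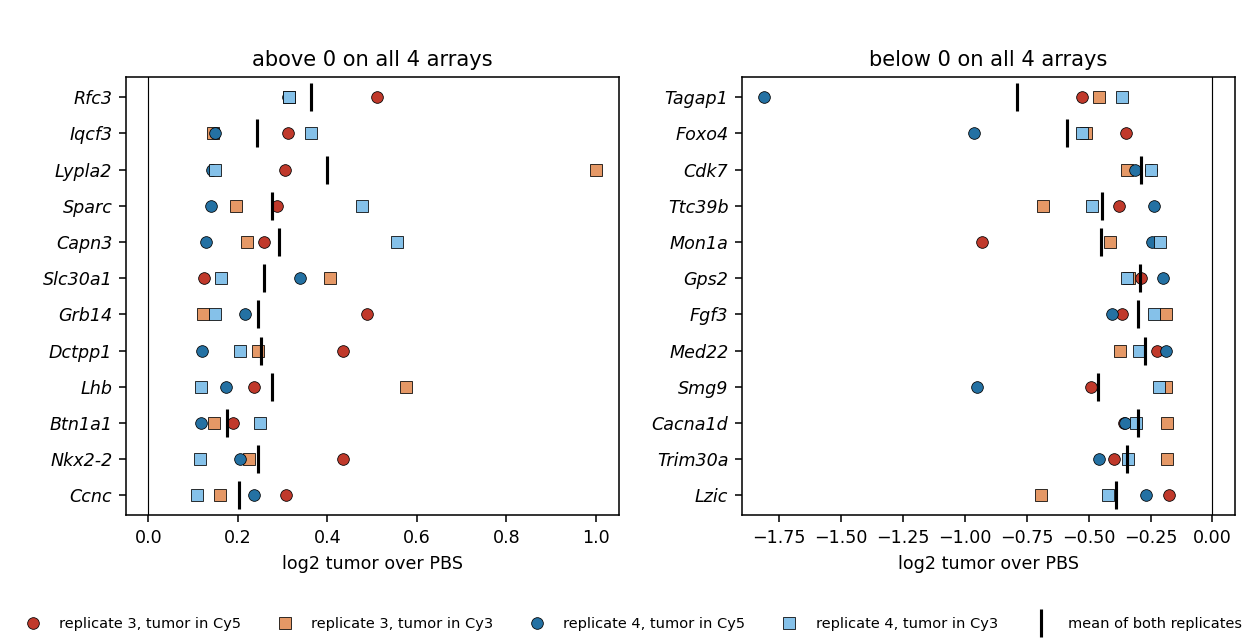
Log2 tumor over PBS (x axis) on each of the 4 arrays for the 12 genes above 0 (left) and the 12 below 0 (right) with the largest smallest array value, ordered by that value; circles are arrays with tumor in Cy5, squares arrays with tumor in Cy3, and black bars the mean of both replicates. Rfc3 has 3 arrays at 0.31, and Tagap1 has 1 array at -1.81.

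How far these genes rest on single arrays and on the normalization is part of the measurement. Of the 35 genes, 8 kept a mean of at least 0.3 in size whichever single array was left out, namely Tagap1, Foxo4, Ywhag, Mon1a, Ttc39b and Sting1 below 0, and Rfc3 and the unnamed transcript C330018D20Rik above 0. The rule found 5 genes above 0 and 9 below 0 when the loess was run within each print block. Of those first found, Ccdc150 at 0.65 and Tagap1, Smg9 and Ywhag at -0.70, -0.41 and -0.37 then still met it. Others kept about their size but not one sign on all arrays, such as Mon1a at -0.46, Kcne1 at -0.46, Irx6 at -0.46 and Rragc at 0.36, while Cacna1d at -0.12 and Prep at -0.09 were smaller. In the authors' processed values Tagap1 and Ccdc150 met it, at -0.82 and 0.59 if those values are natural logs. Ccdc150, a coiled-coil protein gene, gave 0.022, 2.83, 0.14 and 0.070, so array 451 alone set its mean of 0.77, which was 0.06 without that array.

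Stress and immune signalling were looked at first among the gene groups. Of 7 measured genes of the interferon response and DNA sensing, 2 were above 0 and 5 below, and 0 passed the test. The median was -0.11, with -0.11 in replicate 3 and -0.15 in replicate 4, against 0.01 over all 1936 genes. Sting1, the receptor for cyclic dinucleotides made on cytosolic DNA, gave -0.91 and -0.48 in replicate 3 and -0.12 and -0.22 in replicate 4. Trim30a, an interferon-inducible tripartite motif protein, gave -0.40, -0.18, -0.46 and -0.34. Both were below 0 on all 4 arrays, at means of -0.43 and -0.34, and Trim30a was at -0.29 without array 450. Irf3, the transcription factor downstream of Sting1, had a mean of 0.09 and Isg20, an interferon-induced exonuclease, one of 0.04, both with arrays on either side of 0. Without array 450 Irf3 was at -0.09, and without array 451 Isg20 was at -0.21. In bulk tissue, fewer cells of a type and less RNA per cell cannot be told apart, here and for every group below.

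Cytokines, chemokines and NF-kB response genes were not shifted as a group. Of 22 measured, 14 were above 0 and 8 below, with a median of 0.01, the same as over all genes, and 0 passed. Il6ra, the receptor for interleukin 6, was one of 2 with one sign on all arrays, at -0.20, -0.10, -0.21 and -0.35 and a mean of -0.21. The other was Il10ra, an interleukin 10 receptor chain, at 0.72, 0.29, 0.15 and 0.00. Csf3r, the receptor for granulocyte colony-stimulating factor, had the highest mean of the group at 0.73, but its arrays gave -0.01, 3.18, -0.20 and -0.04. Without array 451 the mean was -0.06. Ccr10, a chemokine receptor, was likewise at 0.37 with and 0.08 without array 451.

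Glucocorticoid and activity markers held 1 gene of one sign. Dusp1, a MAP kinase phosphatase that glucocorticoids and neuronal activity both induce, gave -0.97 and 0.00 in replicate 3 and -0.63 and -0.11 in replicate 4. The Cy5 arrays were low and the Cy3 arrays near 0, and the mean of -0.43 became -0.19 without array 450. Of the 6 measured glucocorticoid-responsive and metallothionein genes 3 were above 0 and 3 below, with a median of 0.04. The 6 measured immediate early genes also split into 3 above and 3 below, with a median of -0.07. Srf, the serum response factor, had a mean of -0.26 and Fosb one of 0.05, with arrays between -0.68 and 0.78 and a mean of -0.32 without array 451.

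Neuropeptides and their receptors showed no common direction. Of 27 neuropeptide genes on the array 11 were measured on all 4 arrays, with 5 above 0 and 6 below, a median of -0.04, and 0 with one sign on all 4 arrays. Outside this list but among the 5 genes above 0 with the smallest p, Uts2, the vasoactive peptide urotensin 2, gave 0.90 and 0.51 in replicate 3 and -0.19 and 0.60 in replicate 4, with a mean of 0.45 ± 0.16 (limma SE, n = 2, adjusted p = 0.966), or 0.26 without array 455. Adcyap1, which encodes the peptide PACAP, had a mean of 0.14, and Nmu, which encodes neuromedin U, one of -0.23 that was -0.04 without array 450. Nucb2, the precursor of nesfatin, had a mean of -0.50 that was -0.02 without array 454. Of 9 receptor genes 4 were above 0 and 5 below, and the replicates stood at medians of 0.15 and -0.15. Crhr1, the receptor for corticotropin-releasing hormone, had a mean of 0.18, which was -0.23 without array 451. Of 7 peptide processing genes, Prep alone had one sign on all arrays, and Cpe, the carboxypeptidase that trims prohormones, had a mean of 0.09 that was -0.04 without array 451 and -0.10 without array 455. The median of the 7 was -0.03.

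Of 22 measured voltage-gated and related channel genes 8 were above 0 and 14 below, against 1019 above and 917 below over all genes, and 0 passed. Their median was -0.04, with 0.02 in replicate 3 and -0.05 in replicate 4, and with 0.05 for tumor in Cy5 and -0.09 for tumor in Cy3. Cacna1d, the pore of the L-type calcium channel that opens at low voltage, gave -0.36, -0.19, -0.35 and -0.31 and a mean of -0.30 ± 0.14 (limma SE, n = 2, adjusted p = 0.966). Kcne1, an accessory subunit of the Kcnq1 potassium channel, gave -1.74 and -0.40 in replicate 3 and -0.19 and -0.11 in replicate 4. Its mean of -0.61 was -0.28 without array 450. Kcnq1 itself had 0.46, 0.06, 0.04 and 0.09, above 0 on every array, with a mean of 0.16 that was 0.06 without array 450. Of 37 vesicle trafficking, Rab and SNARE genes 16 were above 0 and 21 below, at a median of -0.01. Snap25, the plasma membrane SNARE of transmitter release, was below 0 on all arrays at -0.28, -0.21, -0.50 and -0.08, and its mean of -0.27 was -0.16 without array 454. Dnm1, the dynamin of synaptic vesicle retrieval, had a mean of -0.39 with array 455 at 0.03, and it was -0.23 without array 450.

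Transmitter systems gave values of either sign. The median of 8 GABA and glutamate genes was 0.06, and 6 of them lay above 0. Gad1, the main GABA-synthesising enzyme, had arrays at 0.29, -0.50, -2.26 and 0.62, so its mean of -0.46 changed sign to 0.26 without array 454. Gabarapl2, an autophagy protein that also binds receptors, had a mean of 0.23 that was 0.12 without array 454. All 8 monoamine and acetylcholine genes had a mean above 0, at a median of 0.09 with 0.18 in replicate 3 and 0.01 in replicate 4, and 0 passed. The lowest mean was 0.001. By array, 6, 6, 5 and 3 of the 8 were above 0 on arrays 450, 451, 454 and 455, and 1 was above 0 on all 4. Chrne, a nicotinic receptor subunit, had a mean of 0.20 that was -0.03 without array 450. Drd2, the dopamine receptor that restrains prolactin cells and striatal output neurons, had arrays at 0.42, 0.22, 0.06 and 0.10.

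Insulin and MAP kinase signalling genes were spread around 0. Of 15 insulin, energy sensing and FoxO genes 6 were above 0 and 9 below, with a median of -0.01. Foxo4 was the lowest and Grb14 the highest, and Insrr, the insulin receptor-related receptor, had a mean of -0.31 that was 0.03 without array 450. Of 17 MAP kinase and dual-specificity phosphatase genes 8 were above 0 and 9 below, at a median of -0.06. Mapk12, a p38 kinase, had arrays at -1.50, -0.31, 0.05 and 0.38, and its mean of -0.35 was -0.05 without array 450. Map3k11, a mixed-lineage kinase, was above 0 on all arrays at 0.17, 0.54, 0.04 and 0.10, and its mean of 0.21 was 0.12 without array 451.

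Of 23 measured cytosolic ribosomal protein genes, 21 were above 0 and 2 below, and 0 passed the test. Their median was 0.13, at 0.14 in both replicates, against 0.01 over all genes. The orientations differed in replicate 3, where 19 of 23 were above 0 on array 450 and 6 of 23 on array 451, and less in replicate 4, with 18 of 23 on array 454 and 16 of 23 on array 455. The array medians were 0.34, -0.06, 0.13 and 0.06. The median of 30 oxidative phosphorylation genes was 0.08, and 23 lay above 0. By array, 24 of 30 were above 0 on array 450 and 9 of 30 on array 451, but 19 of 30 on array 454 and 22 of 30 on array 455, so that only replicate 3 showed the split by orientation in these counts. With loess within print blocks the medians of the mean were 0.06 for ribosomal and 0.02 for oxidative phosphorylation genes. Rps20, a small-subunit protein, was the highest ribosomal gene and above 0 on all arrays at 0.36, 0.00, 0.38 and 0.41. Ndufa4, a subunit first purified with complex I, led the respiratory genes with a mean of 0.34 and arrays at 0.23, -0.10, 0.82 and 0.41. The 20 mitochondrial ribosomal genes split into 10 above and 10 below 0, with a median of 0.01. Whether dye or brightness gave the ribosomal values was not tested.

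The 13 heat shock and chaperone genes had a median of 0.12, against 0.01 over all genes, and 12 had a mean above 0, with 0 past the test. By array, 9, 9, 5 and 11 of the 13 were above 0 on arrays 450, 451, 454 and 455, and the median on array 454 was -0.06. Cct8, a chaperonin subunit, was above 0 on all arrays at 0.50, 0.04, 0.23 and 0.12. The mean of Cct8 was 0.22, or 0.10 without array 450. The 5 proteasome genes had a median of 0.11, with 0.31 in replicate 3 and 0.02 in replicate 4. Of 21 splicing and RNA processing genes 15 were above 0, at a median of 0.06. The 11 thioredoxin, glutathione and antioxidant genes had a median of -0.05. Txn2, the mitochondrial thioredoxin, had a mean of 0.69 that was -0.24 without array 454, and Park7, a redox-sensitive chaperone, a mean of -0.45 that was -0.04 without it. Cell cycle genes had a median of 0.06 over 11, with 0.17 in replicate 3 and -0.06 in replicate 4, and 13 sterol and fatty acid genes one of 0.01, where Pnpla2, the first lipase of fat droplets, stood highest at 0.41 and was at 0.20 without array 451. The 11 calmodulin, CaM kinase and 14-3-3 genes and the 11 glycolysis and TCA cycle genes had medians of 0.03 each. In the second of these groups Gpd2 was the highest, and Pcx, the mitochondrial pyruvate carboxylase, was the lowest and below 0 on all 4 arrays at a mean of -0.27.

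**Figure D3:**
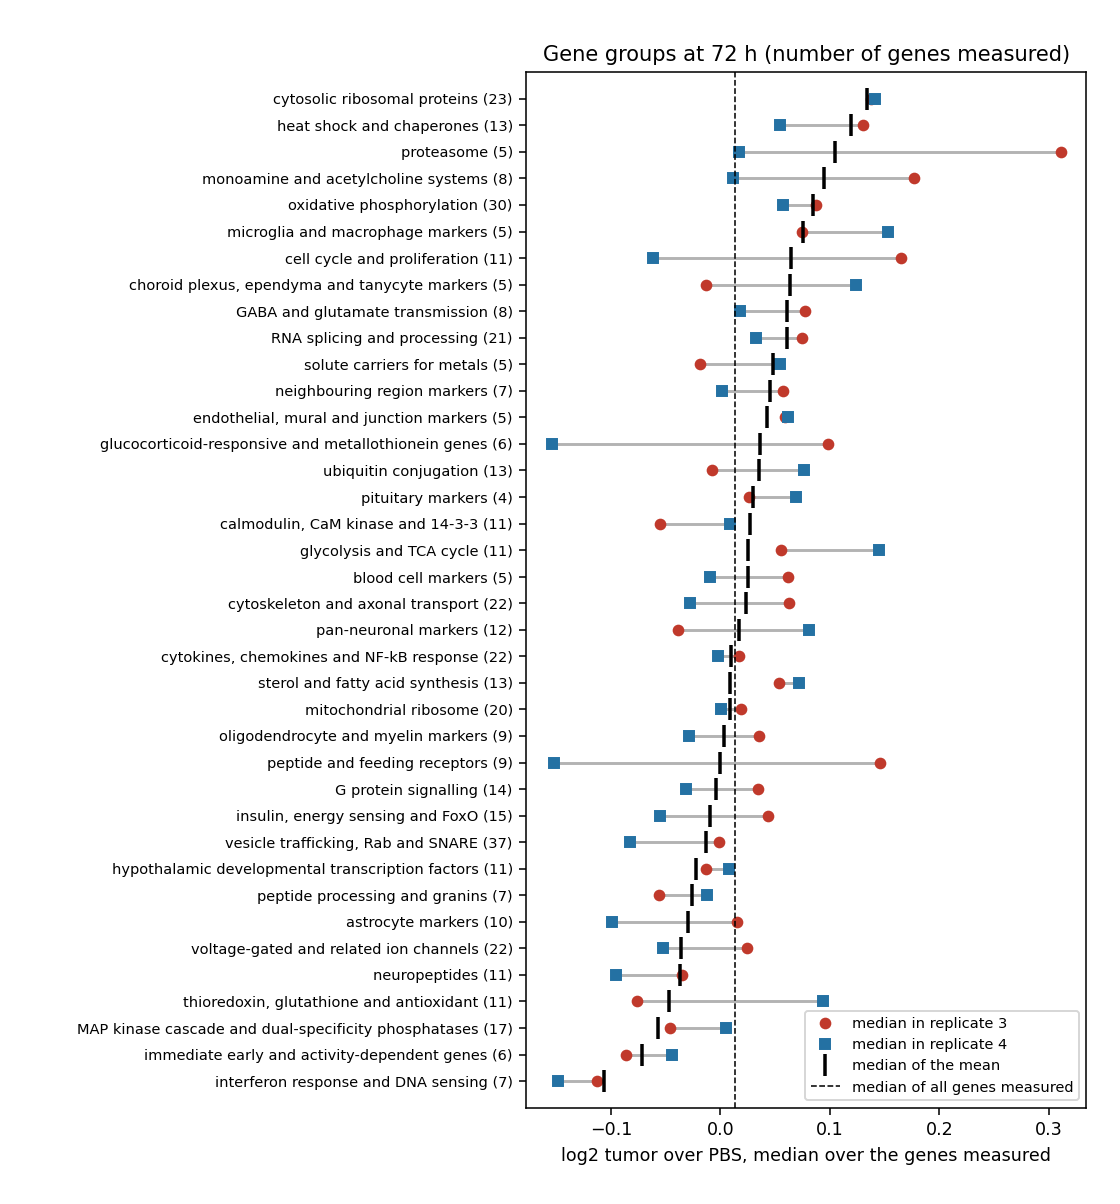
Median log2 tumor over PBS (x axis) for each gene group with at least 4 measured genes (number in parentheses), in replicate 3 (red circles), in replicate 4 (blue squares) and of the mean (black bars); the dashed line is the median of all genes measured, 0.01. The replicates of several groups lie on opposite sides of 0.

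Markers of cell types were read to see what tissue the arrays held and whether its makeup moved. Neuronal genes were among the brightest, with Pcsk1n, a granin-like inhibitor of prohormone convertase 1, in the 5 brightest genes. Hypothalamic factors such as Nkx2-1 and Six6 gave values on all arrays, but every gene described had to, so this does not show the tissue. Of 39 hypothalamic developmental factors on the array 11 were measured, and Six6 is also in the pituitary list. Of 12 pan-neuronal markers 7 were above 0, with a median of 0.02, of 10 astrocyte markers 3, with a median of -0.03, and of 9 oligodendrocyte markers 5, with a median of 0.00. Microglia and macrophage markers were thinly covered. Of 51 listed, 24 were on the array and 5 were measured, of which 4 were above 0 at a median of 0.08, and Cd68, a lysosomal protein of phagocytes, had a mean of -0.06 that was 0.13 without array 454. The defining markers Aif1 and Itgam lacked a value in at least 1 of the replicates. The 5 measured genes of the endothelial, mural and junction list had a median of 0.04. They ranged from -0.02 for Ctnnb1 to 0.28 for Sparc, which is also in the microglia list. The 5 choroid plexus, ependyma and tanycyte genes had a median of 0.06. Blood cell genes ranged from -0.59 for Cd79a, a B cell receptor subunit at -2.30 on array 450, to 0.28 for Cd5, a T cell surface protein, with a median of 0.02. Cd79a was at 0.02 without array 450, and Cd5 at 0.09 without array 455. The 4 pituitary genes had a median of 0.03, led by Lhb, the beta chain of luteinising hormone, and the 7 genes of neighbouring brain regions one of 0.05, led by Neurod2, a cortical transcription factor, at 0.44. Their part in the other results was not tested.

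Some genes had ratios that turned sign with the labelled dye orientation in both replicates. The orientation part of a ratio (tumor in Cy5 minus tumor in Cy3, multiplied by 0.5) was at least 0.5 in size with one sign in both replicates for 28 genes, and negative for 27 of them. Krt14, a keratin of surface epithelia, gave -2.41 and -2.75 with tumor in Cy5 and 2.35 and 2.40 with tumor in Cy3. Ccr3, an eotaxin receptor, gave -1.60 and -2.52 against 2.84 and 1.83, and Dgat1, an enzyme of triglyceride synthesis, -1.76 and -1.93 against 1.42 and 1.28. In each of these genes channel B, read here as Cy5, was the weaker after loess on all 4 arrays, and the mean over orientations was -0.10, 0.14 and -0.25. None of the 35 genes of one sign was among the 28, an outcome that the rules of choice largely fix. A ratio that turns sign with the orientation cannot have one sign on all 4 arrays. Dusp1, among the 35, still had both Cy5 arrays below both Cy3 arrays. The orientation part correlated at r = 0.33 between the replicates over the 1936 genes, whereas the mean over orientations correlated at r = -0.0021. If the orientation of 1 array in each replicate were recorded wrongly, the orientation part would hold the tumor difference, and these values do not tell a dye effect from that.

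**Figure D4:**
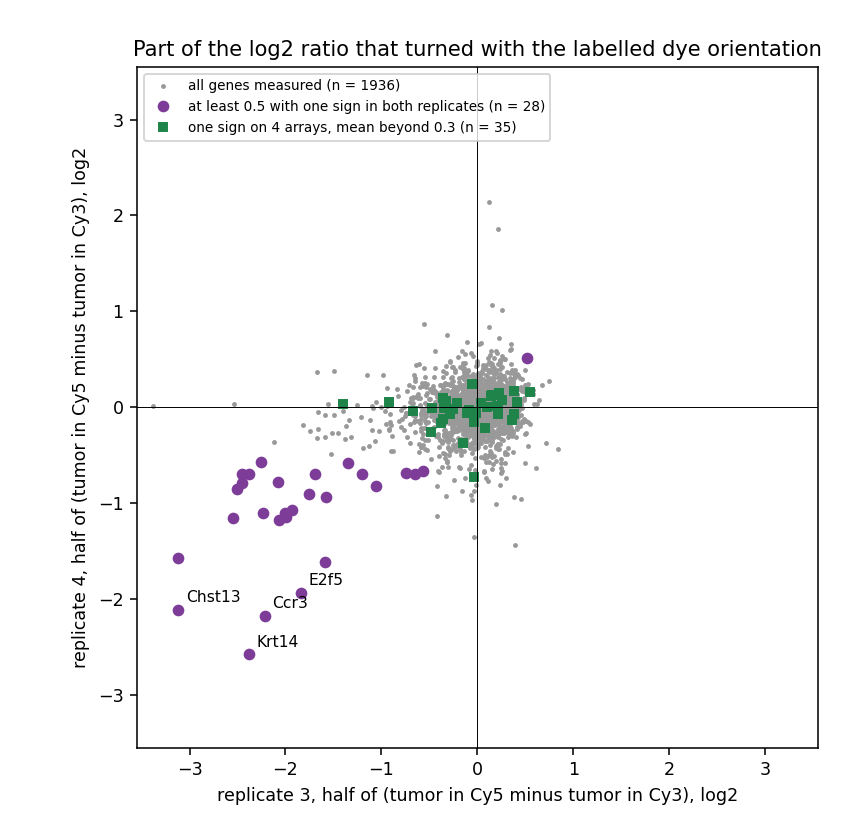
Orientation part of the log2 ratio (tumor in Cy5 minus tumor in Cy3, multiplied by 0.5) in replicate 3 (x axis) and replicate 4 (y axis) for 1936 genes; purple circles are the 28 genes at least 0.5 in size with one sign in both, and green squares the 35 genes of one sign on all 4 arrays with a mean of at least 0.3 in size. The purple genes lie in the lower left, 27 of 28 with a weaker signal in channel B, read as Cy5.

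The contrasts with the other times, which had 3 total RNA replicates at 18 h and 2 at 192 h of the same injections, called no gene. Measured against 18 h, 72 h differed in 0 of 1716 genes (0%) at an adjusted limma p under 0.05, with 22 genes higher and 37 lower at 72 h at an unadjusted p under 0.05 and a smallest adjusted p of 0.981. Measured against 192 h it differed in 0 of 1006 genes (0%), with 15 higher and 19 lower at an unadjusted p under 0.05 and a smallest adjusted p of 0.983. Of the 24 genes below 0 at 72 h, 17 were also below 0 at 18 h and 7 of the 13 with a value were below 0 at 192 h. Of the 11 genes above 0, 6 were above 0 at 18 h and 6 of 9 at 192 h. Over all genes the sign at 72 h was shared by 55.1% at 18 h and by 47.3% at 192 h.

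The genes named next were picked near the top of these contrasts, so their values are a description. Snap25 had means of 0.25 at 18 h, -0.27 at 72 h and 0.03 at 192 h. Oxct2a, a ketone-body transferase gene, had -0.16 at 72 h, against 0.55 at 18 h. Ywhag had -0.28 at 18 h, -0.56 at 72 h and 0.23 at 192 h, with 192 h replicates at 0.09 and 0.36. Etfa had 0.14, 0.31 and -0.16, with 72 h replicates at 0.33 and 0.29 and 192 h replicates at -0.23 and -0.08. The Etfa difference of 0.47 (72 h minus 192 h) had an adjusted p of 0.983 in limma.

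**Figure D5:**
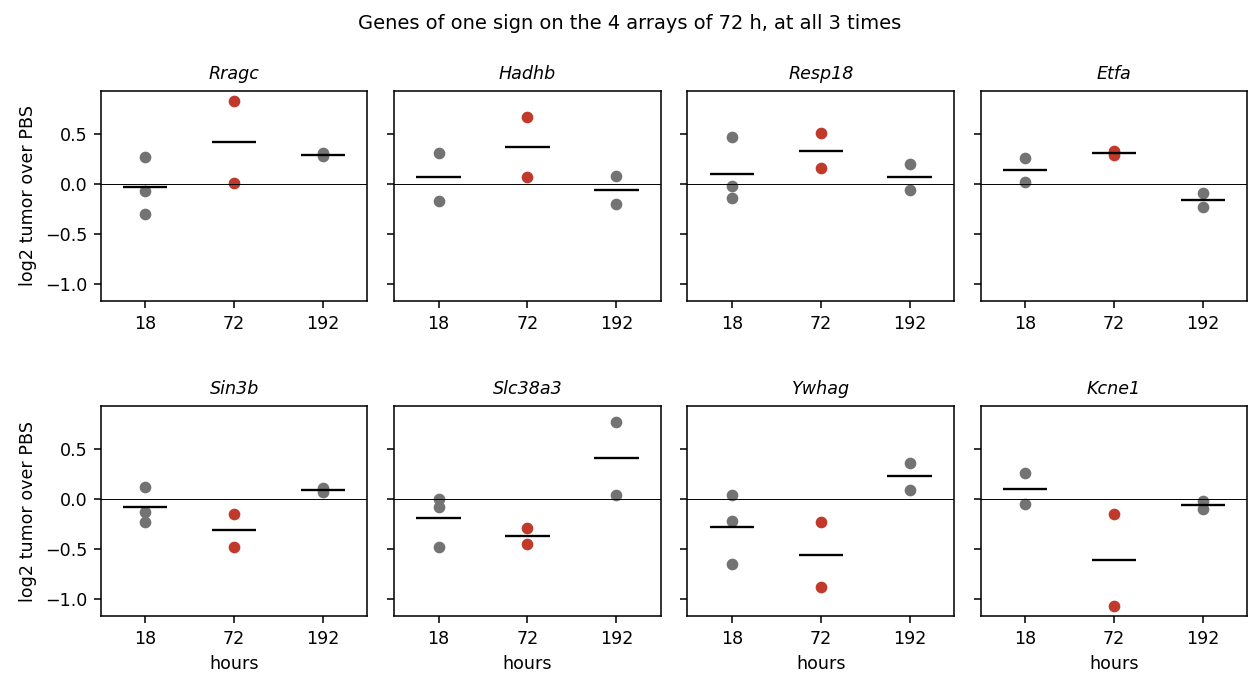
Log2 tumor over PBS (y axis) per total RNA replicate (points) and their mean (bars) at 18, 72 and 192 h for the 8 genes of one sign on the 4 arrays of 72 h with a mean of at least 0.3 in size that were also measured in both replicates of 192 h. Ywhag and Slc38a3 are lowest at 72 h and highest at 192 h, and the 2 points of Rragc and of Kcne1 at 72 h lie far apart.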

How the data were processed

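Each array was deposited as 3 scan tables. Per the file headers they hold integrated intensity per spot in channels A and B with the local background, and the authors' deposited intensity values, already background-subtracted, held many exact zeros. The authors' processed values are log ratios with no stated base. They were read as natural log because the deposited values had 0.43 to 0.63 times the spread of the log2 ratios computed here, which does not settle the base. No source used here names the image software or the makeup of the probes.

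Spots were matched to probe numbers by block, row and column. Of 10080 spots 9066 had 1 gene symbol, 12 several and 1002 none, and 8977 symbols were matched to RefSeq by gene number. Spots above 0 in both channels were turned to log2 B over A and corrected by intensity loess per scan (limma 3.58.1 in R 4.3.3 loessFit, span 0.3, 4 iterations). The values were averaged over those of the 3 scans that gave one and turned to tumor over PBS. The brightest probe stood for a gene. The 2 orientations of a replicate were averaged, and lmFit and eBayes fitted a mean per time over 7 replicates, with Benjamini-Hochberg adjustment over the genes of each comparison and a threshold of 0.05. The fit and the loess step were checked on simulated data.

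Genes named in the text are the 12 in each direction with the largest smallest array value among genes of one sign, the 5 in each direction with the smallest p, the 5 brightest, and members of the gene groups, chiefly the 2 highest and 2 lowest of each. Genes just inside and outside the threshold, genes that turned with the dye, genes at the top of the contrasts between times and the 35 genes of the agreement rule were picked after their values were seen. The members and lists were chosen with earlier results of these data known.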

Additional observations from a re-analysis of the deposited data

Results flagged for a closer look

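In 19 of 181 named genes 1 of the 4 arrays stood apart from the others by Dixon's criterion. Chance flags about 1 group in 20 where groups are not chosen by their values, but many of these genes were named as extremes of a list or for a small p, so that rate does not apply to them. Both replicates and both orientations enter each set of 4. The array apart was 450 for 8 genes, 451 for 7 and 454 for 4. On array 450 the log2 ratio was -2.3 for Cd79a, 0.199 for Dnajb4, -2.02 for Irx6, 0.463 for Kcnq1, 0.92 for Resp18, 0.511 for Rfc3, -1.97 for Slc39a13 and 0.529 for Sox10. On array 451 it was 2.83 for Ccdc150, 1.42 for Crhr1, 3.18 for Csf3r, -0.184 for Pde10a, 0.616 for Psmg2, 0.00276 for Rps20 and -1.01 for Tmem116. On array 454 it was -1.93 for Nucb2, -1.81 for Tagap1, 3.57 for Txn2 and 1.2 for Vti1b. The cause was not tested.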

How the results depend on the processing

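Adjusted over all genes, the limma count at 72 h was 0 under all alternatives except 2. The arrays with tumor in Cy5 alone called 9 genes, all lower, with Krt14, Ccr3 and Dgat1 among them, and the fit without 72 h replicate 4 called 3 genes (Galnt16, Vwa5a and Zfp385a), none among the 1936. The contrast with 18 h gave 2 genes without 72 h replicate 4 and 0 otherwise. Without replicate 4 the 72 h arm holds 1 sample, which is assumed to vary like the replicates of 18 and 192 h. The agreement rule, 11 genes above 0 and 24 below, depended on the setting. It gave 5 and 9 with loess within print blocks, 27 and 59 with median centring and no loess, and 3 and 4 in the authors' processed values. Sgsm1, at -0.33 with loess per scan, was at 0.0032 in those values. Single scans gave 10 and 10, 19 and 15, and 14 and 11. Spots above local background in both channels gave 3 and 3 among 370 genes, and one orientation sufficing gave 483 and 446 among 7054. Tumor in Cy5 alone gave 144 and 262, and tumor in Cy3 alone 884 and 708. A minimum mean of 0.2 gave 46 and 63, and of 0.5 gave 1 and 5. Leaving out 1 replicate or, as chosen after seeing the data, 1 array gave 36 to 431 genes above 0 and 74 to 551 below, with fewer arrays having to share a sign. With a replicate block the count stayed 0 adjusted, with 60 genes at an unadjusted p under 0.05 in place of 73, and 11 and 24 genes by the rule. After the mean of its time was taken from each replicate, same-numbered replicates of different times correlated at 0.022 to 0.061 over 620 genes. The 2 pairs of 72 h with 192 h gave the same value, because deviations of 2 replicates from their mean mirror each other. The cause of the other differences was not tested. Depth limits the comparison through the exact zeros of array 454 and through 2 replicates.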
